A study of Canis lupus familiaris with 34 samples.

Results

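The genes described here carry out and control mitosis in osteosarcoma, a bone cancer, of dogs. They are cyclins and mitotic kinases, spindle checkpoint and anaphase genes, the chromosomal passenger complex, centromere and kinetochore proteins, spindle proteins, mitotic kinesins and cytokinesis genes. The 45 genes were taken by symbol. An Affymetrix Canine_2 probe set of a single symbol existed for 39 of them, and 38 passed the filter on low signal, out of 7849 genes tested in all. CCNB1, BUB1, CENPE, MKI67, KIF20A and MAD2L1 had no such probe set and are named only. UBE2C, a ubiquitin-conjugating enzyme that works with the anaphase promoting complex, had probe sets that all failed the filter, with log2 intensities of 1.24 to 3.59 in primary lines.

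RNA was measured in cell lines from osteosarcoma metastases (3 dogs), in lines from primary osteosarcomas (25 arrays from 24 dogs) and in snap-frozen primary osteosarcoma tissue (6 dogs), 31 dogs in all. By label the primary lines came from 10 Rottweilers, 7 Golden Retrievers and dogs of other or unknown breed. Primary line 4 came from a Saint Bernard, lines 13 and 23 from German Shepherds and line 14 from a Great Pyrenees. Primary line 18 came from a Mastiff and line 24 from an Alaskan Malamute, and the breed of line 15 was unknown. Metastatic line 1 came from a Rhodesian Ridgeback and metastatic lines 2 and 3 from Rottweilers. Tissues 3, 5 and 6 came from Golden Retrievers, the others from a Great Pyrenees, a Belgian tervuren and a Borzoi. Dogs of both sexes were included (labels M, MC, F and FS), and primary line 15 had no sex label. Ages at diagnosis were 2.39 to 6.31 for the metastatic lines, 2 to 11.19 for the primary lines and 2.67 to 11.91 for the tissues (unit not stated in the labels). The treatment label was SOC, which is not spelled out, for 1 metastatic line array, 11 primary line arrays and 3 tissue arrays. The remaining arrays had another label or none. In dog 22, line array 19 was labelled SOC, while line array 22 and tissue 5 had no treatment label. The labels PALL, AMP and ABX, also not spelled out, were PALL for 1 metastatic line, and AMP for 3, PALL for 2 and ABX for 1 of the primary lines. SOC* was the label of 3 primary lines and carried a note in brackets. The note was "died before 1st chemo" for primary line 1 and "died before ending chemo" for primary lines 12 and 23. Per the labels the lines were tumour cells or cultured cells that had been frozen, and no passage number or growth state is given. Sample titles carried 1 of 3 prefixes, here called title prefix 1, 2 and 3, whose meaning the labels do not give. Prefix 1 held 4 primary lines, prefix 2 held 19 primary and 3 metastatic line arrays, and prefix 3 held 2 primary line arrays and all 6 tissues. Both arrays of dog 22's line (primary line arrays 19 and 22) were averaged, which gave 24 primary lines and 33 samples. In tissues 6 of 8 tested osteoblast markers had a median over 5 and in primary lines 2 of 8, on the log2 scale.

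Entry into mitosis is driven by CDK1 bound to a cyclin, with the Aurora and Polo-like kinases acting on spindle, centromere and chromosomes. The kinetochore, built on the histone CENPA, then binds microtubules, the spindle checkpoint holds back anaphase until every chromosome is attached, and the anaphase promoting complex with CDC20 releases it. These genes are transcribed together shortly before division, largely through the DREAM and MYBL2-MuvB complexes and FOXM1, and their summed level is widely used as a measure of how many cells of a tumour are cycling. In bulk RNA a lower level can mean fewer dividing cells or less of a transcript in each cell, and these cannot be told apart. Levels are given as log2 of the intensity, differences as log2 differences, and levels of different genes are not set against each other, since each probe set has its own scale.

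Nearly all members rose and fell together from line to line. To describe this, each member was standardised over the 24 primary lines and correlated with the mean of the other members, which is called the axis. A member was said to follow the axis at a Pearson r of at least 0.7 and to depart from it at an r under 0.4. In primary lines 37 of 38 members followed, none lay between, and CENPN departed. Of all 7849 genes, 8.38% reached the same r with the mean of the members, and the median r over all genes was 0.099. The median r of the members was 0.936, and 30 of 38 had an r of at least 0.9. A first principal component held 84.7% of the members' variance over lines and the second 4.99%. These correlations describe 24 lines that share an array type and processing, and the members were listed as mitosis genes to begin with. Over the 703 pairs of members the median r was 0.876. The closest pair was CCNB2 with KIF23 (r 0.989), followed by CDC20 with CCNA2 (0.986) and BUB1B with CCNA2 (0.979). Among members other than CENPN the lowest pairwise r was 0.562. The plot of members by sample shows the gradient over lines, with CENPN as the even row at the bottom.

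**Figure D1:**
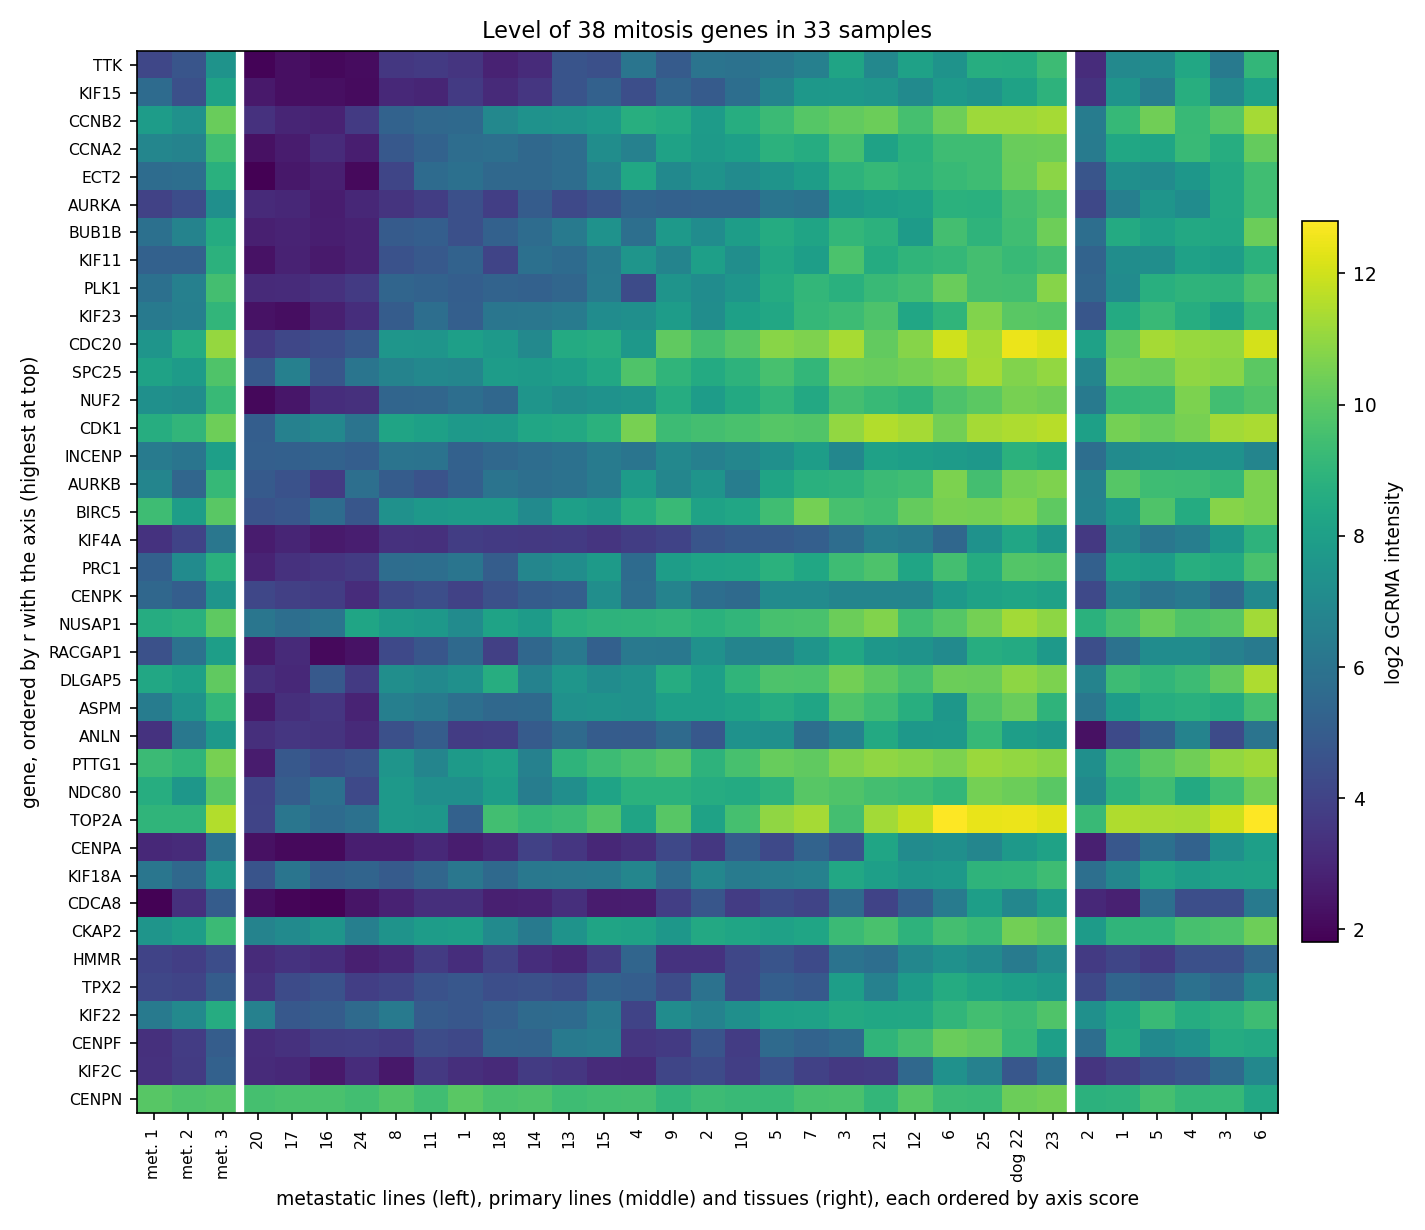
Log2 GCRMA intensity (colour) of the 38 tested mitosis genes (rows, highest r with the axis at the top) in 3 metastatic lines, 24 primary lines and 6 tissues (columns, each group ordered by axis score). Primary lines 20, 17, 16 and 24 are low and primary lines 25, 23 and that of dog 22 are high in almost every row, and CENPN in the last row changes little.

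The axis separated lines over a wide range. Scores, the mean of the standardised members, were lowest in primary lines 20 (-1.497), 17 (-1.33), 16 (-1.33) and 24 (-1.32), and highest in primary line 23 (1.45), the line of dog 22 (1.41) and primary line 25 (1.26). In primary line 20 only 6 of 38 members had a log2 level over 5, the level used as the filter on low signal, whereas all 38 did in primary line 23. The median member spanned 6.66 log2 units between its lowest and highest line, and 19 of 38 members spanned at least 100-fold. The widest was ECT2, a guanine nucleotide exchange factor of cytokinesis, at 9.07 (538.5-fold), and the narrowest CENPN at 1.42 (2.68-fold). Low values near the bottom of the intensity scale hold background, so the large folds are descriptions of the deposited values. Leaving out primary lines 20 and 23, the 2 farthest from the median, 37 members still followed (median r 0.933). The same count was found in the 19 primary line arrays of title prefix 2 alone (median r 0.945) and without primary line 4, whose endothelial marker signal stood apart (median r 0.940). Across lines the axis had an r of -0.318 with the 3′ minus 5′ actin difference, which rises as RNA degrades, of 0.200 with that of GAPDH and of 0.00826 with the array median (n = 24).

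Cyclins and kinases were among the members nearest the axis, with r of 0.955 to 0.969 for the 5 tested. CCNB2, a B-type cyclin that activates CDK1, had a lowest, median and highest level of 2.86, 8.18 and 11.32 in primary lines (r 0.969). CCNA2, the cyclin of S phase and early mitosis, had 2.31, 7.48 and 10.34 (r 0.969). AURKA, the Aurora kinase of the spindle poles, had 2.69, 5.25 and 9.91 (r 0.966). The lowest of these levels were in primary line 16 for CCNB2 and AURKA and in line 20 for CCNA2, and the highest of all 3 were in primary line 23. CDK1 itself (r 0.955) had a level over 5 in all 24 lines. PLK1, the Polo-like kinase of mitotic entry, followed at 0.964, and its widest residual was in primary line 4, 2.23 below the level the other members predicted. TOP2A, the topoisomerase that untangles sister chromatids, followed at 0.918 over a range of 8.72, with primary line 1 the farthest below its fit (-2.47).

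The 4 tested checkpoint and anaphase genes had r of 0.923 to 0.975. TTK, the checkpoint kinase also called MPS1, was the member nearest the axis of all 38, at r 0.975. Its lowest, median and highest levels were 1.92, 5.44 and 9.32, in primary lines 20 and 23 at the ends. BUB1B, a subunit of the mitotic checkpoint complex, followed at 0.966 and CDC20, the activator of the anaphase promoting complex, at 0.960. PTTG1, securin, which holds separase inactive, followed at 0.923 over a range of 8.51, and lay 2.28 below its fit in primary line 20, its lowest line.

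The chromosomal passenger complex places Aurora B on centromeres and the central spindle. Its kinase AURKB, its scaffold INCENP, survivin (BIRC5) and borealin (CDCA8) all followed, with r of 0.896 to 0.947. Pairs within the complex had r of 0.7996 (BIRC5 with CDCA8) to 0.917 (AURKB with INCENP) over lines, beside the median of 0.876 over all pairs of members. Centralspindlin, made of the kinesin KIF23 and RACGAP1, and its partner ECT2 had pairwise r of 0.942 to 0.963. ECT2 had a lowest, median and highest level of 1.80, 7.06 and 10.87 (r 0.968), with primary lines 20 and 23 at the ends. Anillin (ANLN), the scaffold of the contractile ring, followed at 0.923.

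Centromere and kinetochore genes held both near and far members. NDC80, NUF2 and SPC25, subunits of the microtubule-binding Ndc80 complex, followed at 0.921, 0.956 and 0.959, with pairwise r of 0.907 to 0.946. CENPA, the centromeric histone, followed at 0.908 and CENPK, of the constitutive centromere network, at 0.935. CENPF, a large kinetochore and nuclear matrix protein, was the second lowest of the following members at 0.804. Its lowest, median and highest levels were 3.20, 5.31 and 10.30, and it had the largest residual SD of all members, 1.39 log2 units. It lay 2.35 above its fit in primary line 6 and 2.32 below it in primary line 10.

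CENPN, a constitutive centromere protein that recognises CENPA nucleosomes, was the one departing gene, and it departed through a single probe set. The probe set of the highest mean stood for each gene, and for CENPN it had 9.04, 9.54 and 10.47 as its lowest, median and highest level in primary lines, with an SD of 0.350 and an r of 0.108 (Spearman's rho -0.121). The lowest line was primary line 9 and the highest primary line 23. The other CENPN probe sets that passed the filter had r of 0.953 and 0.942 with the axis and SDs of 2.17 and 2.04. Which transcripts the probe sets of CENPN detect was not tested. CENPF and TPX2 showed the same split in a milder form, with a second probe set at r 0.972 for CENPF and at 0.977 for TPX2. Of all 63 kept probe sets of members, 62 had an r of at least 0.7, including all 25 that did not stand for their gene. With the probe set of the largest interquartile range in place of the highest mean, 38 of 38 members followed, with CENPN at 0.956 and the lowest member at 0.773. Whether CENPN departs thus depended on which probe set stood for it.

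**Figure D2:**
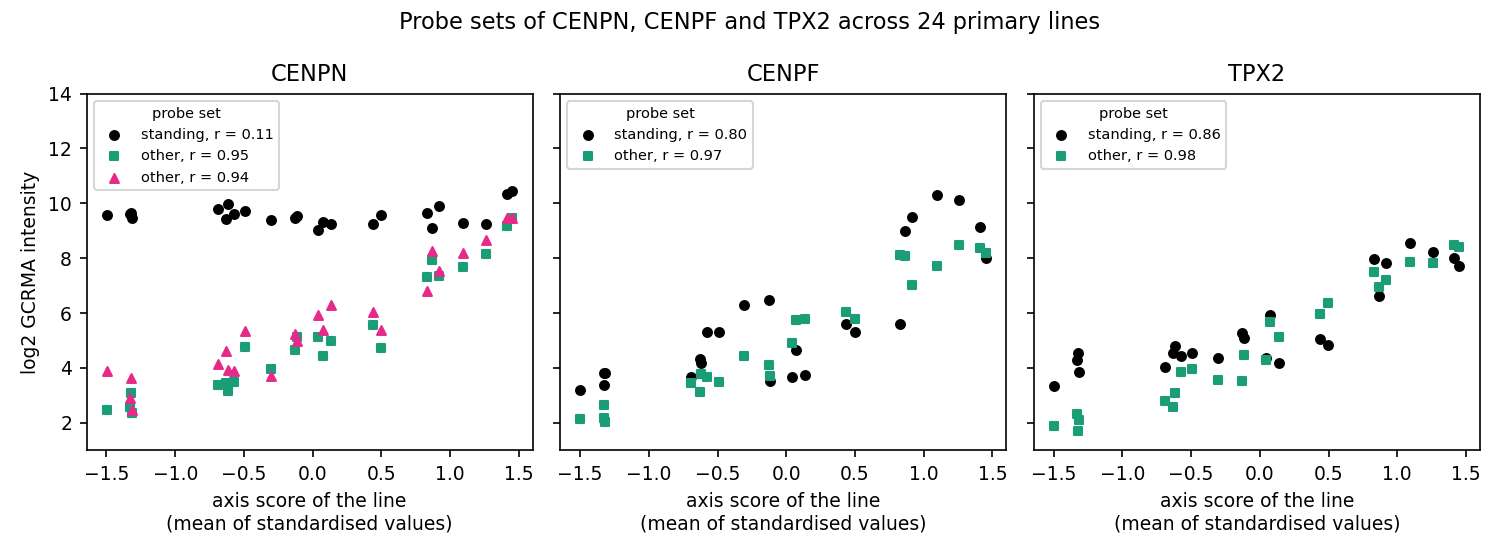
Log2 GCRMA intensity of each kept probe set of CENPN, CENPF and TPX2 (vertical axis) against the axis score (horizontal axis) in 24 primary lines. The standing CENPN probe set (r 0.11) runs flat while its others (r 0.95 and 0.94) rise with the axis, and CENPF and TPX2 each have a second probe set that lies closer to the axis than the standing one.

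Spindle proteins followed at 0.863 to 0.938. PRC1 (0.938), which bundles antiparallel microtubules, NUSAP1 (0.934), a microtubule stabiliser, DLGAP5 (0.931), a spindle assembly factor, and ASPM (0.925), a spindle pole protein, lay near the axis. TPX2, which activates Aurora A on microtubules, had a lowest, median and highest level of 3.35, 4.82 and 8.55 (r 0.863). HMMR, a spindle and hyaluronan-binding protein, had 2.78, 3.86 and 7.37 (r 0.864), with a level over 5 in 8 of 24 lines. CKAP2, a cytoskeleton-associated protein of the spindle, followed at 0.893 over the narrowest range of the spindle genes, 6.32 to 10.46.

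The 7 tested kinesins of mitosis all followed, over the widest spread of r of the groups in which every gene followed. KIF15, which can keep spindle poles apart, had a lowest, median and highest level of 2.14, 5.09 and 8.89 (r 0.970). By its other kept probe sets KIF15 was at r 0.953, 0.807 and 0.716. KIF11, the main motor that separates the poles, followed at 0.965, KIF23 at 0.964, the chromosome-bound KIF4A at 0.942 and KIF18A, which dampens chromosome oscillations, at 0.905. KIF22, a chromosome-arm kinesin, had 4.03, 6.65 and 9.78 (r 0.851) and was farthest from its fit in primary line 4 (-2.72) and primary line 20 (2.21). KIF2C, a kinesin that takes microtubules apart at centromeres, had 2.51, 3.66 and 7.35 (r 0.762, rho 0.838) and a level over 5 in 4 of 24 lines. By the probe sets that stand for the genes, KIF2C and CENPF were thus the following members closest to the threshold of 0.7, both inside it.

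KIF2C, CENPF, TPX2 and HMMR, 4 of the 6 following members with the lowest r, were high in the same line. Primary line 6 was above the fit in CENPF by 2.35, in KIF2C by 2.26, in TPX2 by 1.38 and in HMMR by 1.29, and it was the highest primary line for all 4 of these genes by the probe sets that stand for them. By the other kept probe sets of CENPF and TPX2 it was not, with CENPF at 7.72 in line 6 and 8.46 in line 25, and TPX2 at 7.85 in line 6 and 8.49 in the line of dog 22. Residuals of TPX2 and HMMR had an r of 0.682 over the 24 lines, and those of TPX2 and CENPF 0.556. Residuals of KIF22 had r of 0.0715 to 0.314 with those 4 genes, those of CKAP2 -0.165 to 0.457, and in line 6 they were 0.414 for KIF22 and 0.127 for CKAP2. Primary line 4 departed most from the axis as a line, with a residual SD of 1.10 over members. In it 8 members lay more than 1 above their fit, led by ECT2 (2.03), and 5 more than 1 below, led by KIF22 (-2.72), PLK1 (-2.23) and CENPF (-2.03).

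**Figure D3:**
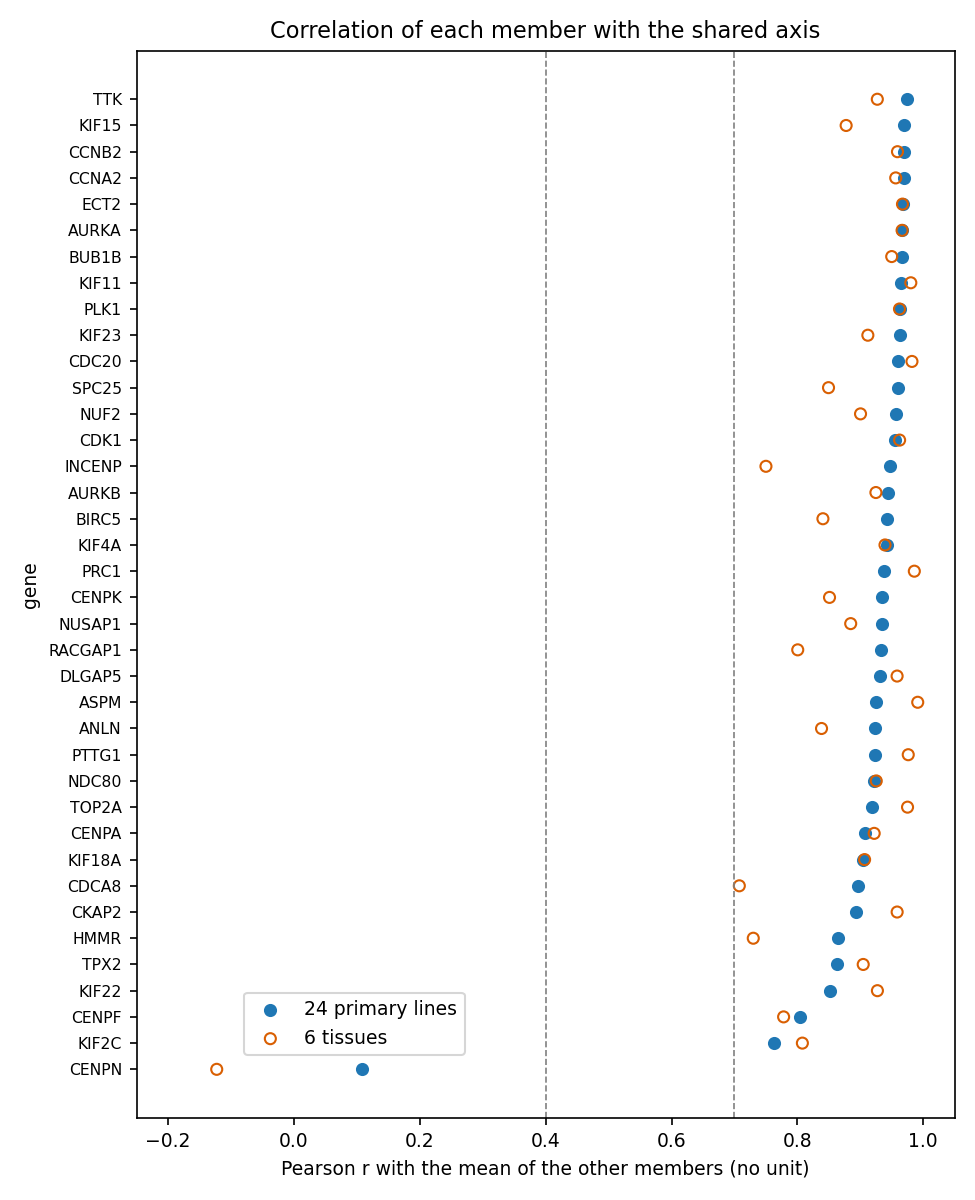
Pearson r of each of 38 members with the mean of the others (horizontal axis) over 24 primary lines (filled) and 6 tissues (open), with dashed lines at 0.4 and 0.7. All members but CENPN lie to the right of 0.7 in both, from KIF2C at 0.762 to TTK at 0.975 in lines.

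In the line of dog 22, the only line labelled as measured on more than 1 array, the axis moved little against the spread between lines. The arrays of dog 22's line had scores of 1.499 (array 22, title prefix 3) and 1.33 (array 19, title prefix 2), and the median absolute difference over members was 0.405. Over 276 pairs of primary lines that median was 1.86, with a range of 0.273 to 6.07. The largest difference between these arrays was in SPC25 (1.78), and 8 members differed by over 1. Primary lines 5 and 9 are labelled as different dogs and had an r of 0.979 over all genes, where the arrays of dog 22's line had 0.919. Their axis scores were 0.437 and 0.0416, and all 38 members were higher in line 5 than in line 9, by a median absolute difference of 0.720.

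Genes outside the list lay as close to the axis as its members. The 10 nearest were ORC1 (r 0.985), MIS18A, SPAG5, HASPIN, POC1A, NCAPH, KPNA2, NEK2, FBXO5 and ZWILCH (0.967), measured over 24 lines. ORC1 is a subunit of the origin recognition complex, MIS18A prepares centromeres for new CENPA, HASPIN phosphorylates histone H3 at centromeres, and FBXO5 inhibits the anaphase promoting complex. ORC1 ranged from 1.89 to 10.07 over lines and MIS18A from 2.63 to 10.76. At the other end were FGF2, a fibroblast growth factor (r -0.872), RBL2, the p130 pocket protein of the DREAM complex (-0.864), and ITM2B, a membrane protein (-0.857). FGF2 was at 4.31, 8.09 and 9.25 and RBL2 at 6.60, 8.58 and 9.89 as lowest, median and highest over lines. In all 621 genes that are no member reached an r of at least 0.7, and 177 of 7849 (2.26%) were at -0.7 or below.

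Lists of related genes followed the axis in unequal shares, with genes of 1 complex on both sides. Of 9 tested regulators of mitotic transcription 4 followed the axis, the activators FOXM1 (r 0.943) and MYBL2 (0.946), the MuvB subunit LIN9 (0.879) and the repressor E2F8 (0.837). The MuvB subunits LIN37 (0.356) and RBBP4 (0.322) departed, E2F4 lay between (0.641), and RBL2 (-0.864) and the CDK inhibitor CDKN1A (-0.717) ran against it. CDKN1A was at 7.81, 11.88 and 13.53 over lines. Of 10 other kinesins only 2 followed, KIFC1 (0.965), a minus-end motor of the spindle, and KIF20B (0.861), a cytokinesis motor. The transport kinesins KIF5B (0.309), KIF5C (0.251) and KIF1C (-0.227) did not. Of 9 tested genes of the constitutive centromere network 8 followed, all but CENPC (0.323), the protein that links CENPA to the outer kinetochore. Other kinetochore and checkpoint genes followed in 12 of 17, condensin and cohesin genes in 9 of 13, and anaphase promoting complex genes in 6 of 16. Among cohesin genes SMC1A (0.877) and SMC3 (0.785) followed, RAD21 lay between (0.646) and STAG1 (0.0546) and STAG2 (0.0975) departed. Among condensin genes NCAPH (0.975) followed and NCAPH2 (-0.126) departed. In the anaphase promoting complex list ANAPC1 (0.793) followed, the catalytic-core subunits ANAPC2 (0.324) and ANAPC11 (-0.212) departed, and the inhibitor FBXO5 (0.972) and the ubiquitin-conjugating enzyme UBE2S (0.896) were nearest. These counts stand against the 8.38% of all genes that followed.

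Metastatic lines and tissues fell within the span of the primary lines for the members nearest the axis. CCNB2 was at 7.86, 7.36 and 10.30 in metastatic lines 1, 2 and 3 and at 6.43, 9.55 and 11.29 as lowest, median and highest in tissues. TTK was at 4.15, 4.71 and 7.45 in the metastatic lines and at 3.20, 7.05 and 9.08 in tissues. ECT2 was at 5.67, 5.77 and 8.78 in the metastatic lines and at 4.69, 7.45 and 9.42 in tissues. Metastatic line 3 was the highest of its group in all 3 genes. CENPN was at 9.94, 9.73 and 9.81 in the metastatic lines and at 8.40, 9.02 and 9.53 in tissues, so by this probe set the metastatic lines lay above every tissue. By another kept probe set of CENPN the metastatic lines were at 2.88, 4.04 and 6.52 and the tissues at 2.98 to 7.75, and these overlapped.

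The axis was also present in tumour tissue, but there it depended largely on 1 tumour. Standardised over the 6 tissues, 37 of 38 members followed and CENPN departed (r -0.123), against 12.6% of all genes at the same r with the members' mean. The median r was 0.925. Tissue 2 was the lowest on the axis, at -0.603 on the scale of the lines, and the other tissues were at 0.375 to 1.11. Without tissue 2, 24 members followed, and 9 departed. By Spearman correlation 26 of 38 followed. The share of all genes was taken only for Pearson r over the 6 tissues, so these counts of 24 and 26 have no background beside them. The macrophage marker sum had an r of -0.426 and a rho of -0.714 with the axis over the 6 tissues, and its part in the tissue pattern was not tested.

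In primary lines against tissues, KIF4A, a chromosome-bound kinesin of chromosome condensation and the central spindle, was the only member called, at an adjusted p under 0.05 and at least 2-fold. That is 1 of 38 members, where 14.6% of all genes were called. KIF4A was at 2.61, 3.89 and 8.29 as lowest, median and highest in primary lines and at 3.64, 6.73 and 8.92 in tissues. The ranges overlapped, and 8 of 24 lines but 5 of 6 tissues were over 5. KIF4A fell by 2.02 log2 units in lines (SE 0.727, limma adjusted p = 0.0413). The direction turned in a fit with a term for the prefix (1.75, adjusted p = 0.388) and within title prefix 3 (1.75, adjusted p = 0.421). These are not separate checks, since all tissues carry prefix 3 and are set against line arrays 22 and 23 in both. The call was lost without a filter on low signal (adjusted p = 0.0509), with the arrays of dog 22 kept apart (0.0801), and without tissue 1, 3, 4, 5 or 6 (0.0584 to 0.155). CENPN was higher in lines by 0.565 (SE 0.169, adjusted p = 0.0142), short of 2-fold and with an adjusted p = 0.0724 without tissue 6, at 9.57 ± 0.350 in lines (SD, n = 24) and 9.003 ± 0.379 in tissues (SD, n = 6). With title prefix as a covariate the CENPN difference was 1.41 (adjusted p = 0.000873) and was called, where 6.28% of all genes were. Within title prefix 3 the difference was the same 1.41 but was not called (adjusted p = 0.0718, 3.2% of all genes called). Both values rest on line arrays 22 and 23, which had CENPN at 10.36 and 10.47. The other kept probe sets of CENPN had lower means in lines than in tissues, 5.18 against 5.96 and 5.67 against 6.11. The direction for CENPN thus depends on the probe set.

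As a group the members were lower in lines than in tissues by direction only. The difference was negative for 34 of 38 members and positive for 4, with a median of -1.19, where the median over all genes was -0.0495. At an unadjusted p under 0.05 stood 6 of 38 members, against 35.5% of all genes. TOP2A had the largest difference, at 4.05, 9.49 and 12.77 in lines and 9.26, 11.43 and 12.79 in tissues (lines minus tissues -2.16, SE 1.002, adjusted p = 0.117). AURKB was at 3.73, 6.64 and 10.66 in lines and 6.64, 9.37 and 10.61 in tissues (-1.98, SE 0.879, adjusted p = 0.101). For both genes the highest line was close to the highest tissue, and the lowest line lay far below the lowest tissue. KIF22 differed by -1.75 (adjusted p = 0.0643) and CKAP2 by -1.07 (adjusted p = 0.102). The ranges of all 38 members overlapped between lines and tissues. No tissue but 10 primary lines came from Rottweilers, and the part of breed in the difference was not tested. Axis scores were -1.497, -0.0368 and 1.45 as lowest, median and highest in lines and -0.603, 0.643 and 1.11 in tissues.

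The direction turned within title prefix 3, which held all tissues and 2 line arrays. There all 38 members were higher in lines, by a median of 1.75. With the prefix as a covariate the median was the same 1.75. The tissues meet lines only in this prefix, so that fit is no separate check. HMMR was the called member within the prefix (2.51, adjusted p = 0.0368), where 3.2% of all genes were called, at 6.57 and 7.09 in the line arrays and 3.67 to 5.49 in the tissues. Those line arrays, 22 and 23, had the highest axis scores of all line arrays, 1.499 and 1.45. Group, title prefix and these individual lines cannot be told apart in this comparison. The 9 macrophage markers summed to 5.43 to 9.48 in primary lines and 12.07 to 14.24 in tissues on the log2 scale, with 0 of 9 marker medians over 5 in lines and 9 of 9 in tissues. Endothelial marker medians were over 5 for 0 of 3 in lines and 3 of 3 in tissues, osteoclast marker medians for 1 of 3 and 3 of 3, and no T and NK cell or erythroid marker could be tested. The part of these other cells in the difference was not tested. In the fit of all samples, the only called genes of the related lists were KIF1A, KIF5C and KIF16B. They are 3 of the 10 tested other kinesins, where 14.6% of all genes were called, and none was called in the remaining lists. These transport kinesins were higher in lines, by 1.97, 2.80 and 1.01 (limma adjusted p = 0.0208, 0.00264 and 7.04e-05).

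**Figure D4:**
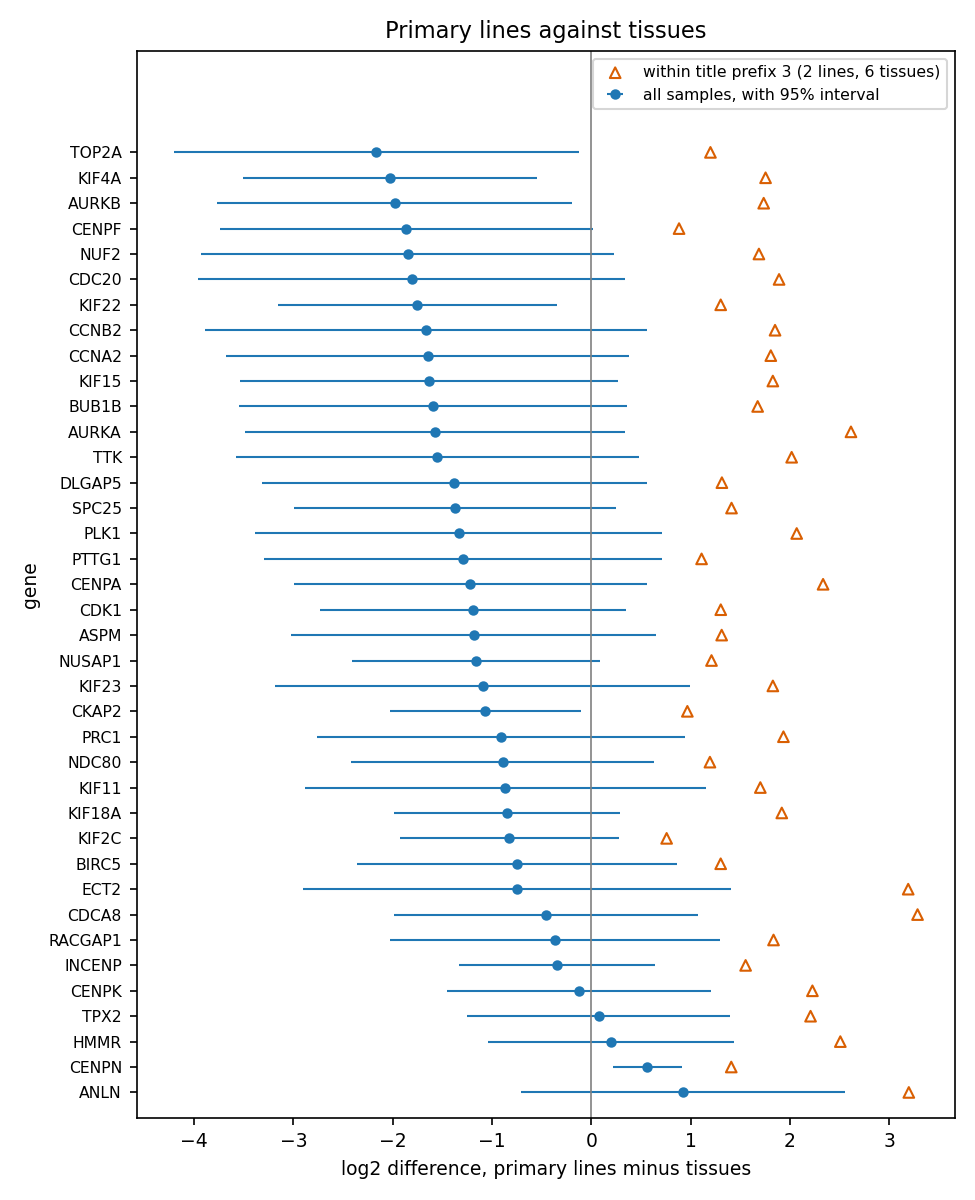
Log2 difference of each member, primary lines minus tissues, in all samples (filled, with 95% interval) and within title prefix 3 (open triangles, 2 line arrays and 6 tissues). KIF4A, at -2.02, is the only called member in all samples, and every triangle lies to the right of 0.

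Dogs 22 and 23 gave a line and a tissue each, and the members moved in opposite directions in them. In dog 22 all 38 members were higher in the line than in the tissue, by a median of 1.36, from 0.0440 for KIF22 to 3.15 for ECT2 (10.24 in the line, 7.09 in the tissue). In dog 23, whose line is primary line 20, 37 of 38 were lower in the line, by a median of -6.16. TOP2A was the extreme there, at 4.05 in the line and 12.79 in the tissue, and CENPN the exception, at 9.56 in the line and 8.40 in the tissue. Over all genes 54.9% were higher in the line of dog 22 and 43.2% in the line of dog 23. Axis scores were 1.41 in the line and 0.611 in the tissue of dog 22, and -1.497 in the line and 1.11 in the tissue of dog 23. Each dog is a single pair, so the difference between the dogs has no replicate check.

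No member was called in metastatic against primary lines, where 0.0127% of all genes (1 of 7849) were called. By limma 0 of 38 members were at an unadjusted p under 0.05, against 6.79% of all genes. The median difference was 0.207, with 27 members higher and 11 lower in metastatic lines. CENPF was at 3.34, 3.74 and 5.05 in the metastatic lines and at 3.20, 5.31 and 10.30 as lowest, median and highest in primary lines (-1.71, 95% interval -4.23 to 0.816, adjusted p = 0.824). TPX2 was at 4.15, 4.07 and 5.01 in metastatic lines and at 3.35, 4.82 and 8.55 in primary lines (-1.11, 95% interval -2.89 to 0.667, adjusted p = 0.851). PTTG1 was at 9.29, 8.99 and 10.54 in metastatic lines and at 2.64, 9.47 and 11.15 in primary lines (1.02, 95% interval -1.67 to 3.703, adjusted p = 0.916). The other kept probe set of CENPF had a mean of 5.40 in metastatic and 5.13 in primary lines, the opposite direction, and that of TPX2 4.64 in metastatic and 4.90 in primary lines, a smaller difference. By the standing probe sets the metastatic values lay within the range of the primary lines. Metastatic lines 1, 2 and 3 had axis scores of -0.315, -0.235 and 0.808. Metastatic lines 2 and 3 came from Rottweilers, and the part of breed in this comparison was not tested. The median difference was -0.521 without metastatic line 3 and 0.655 without metastatic line 1, so its direction turned on 1 line of 3. With 3 lines, the intervals of single members span several-fold in both directions.

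Rottweiler lines tended to lie higher on the axis than Golden Retriever lines. In a fit with a sex term 37 of 38 members were higher in the 10 Rottweiler than in the 7 Golden Retriever lines, by a median of 2.34, where the median over all genes was 0.0709. None was called, and 0.0255% of all genes were (2 of 7849). At an unadjusted p under 0.05 stood 28 of 38 members, against 10.9% of all genes, and the members are not independent of each other, since they share the axis. CCNB2 was at 5.26, 9.42 and 11.17 as lowest, median and highest in Rottweiler lines and at 2.86, 5.51 and 11.19 in Golden Retriever lines (3.51, SE 1.19, limma adjusted p = 0.337). CDC20 was at 7.59, 10.73 and 12.01 in Rottweiler lines and at 3.69, 7.54 and 12.45 in Golden Retriever lines (3.46, SE 1.11, adjusted p = 0.321). NUF2 was at 5.40, 8.80 and 10.04 in Rottweiler lines and at 2.04, 5.42 and 10.54 in Golden Retriever lines (3.36, SE 1.11, adjusted p = 0.329). Medians differed by over 3 while the highest line of all 3 genes was a Golden Retriever line, and the ranges of all 38 members overlapped between the breeds. The smallest adjusted p of a member was that of KIF11 (3.33, SE 0.991, adjusted p = 0.312).

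Axis scores were over 0 in 9 of 10 Rottweiler lines and in 2 of 7 Golden Retriever lines. They were -0.692, 0.468 and 1.26 as lowest, median and highest in Rottweiler lines and -1.497, -0.629 and 1.41 in Golden Retriever lines. Within title prefix 2 the median difference was 2.55 and 0 members were called, and with array weights, which give discordant arrays less influence, 22 of 38 members and 3.45% of all genes were called. CENPN (-0.210) was the member lower in Rottweiler lines. The actin 3′ minus 5′ difference had a median of 0.823 in Rottweiler lines and 1.84 in Golden Retriever lines, and its part in the difference was not tested. Rottweiler primary lines 5 and 9 are the similar pair described above, and with their mean as 1 line the median was 2.48.

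**Figure D5:**
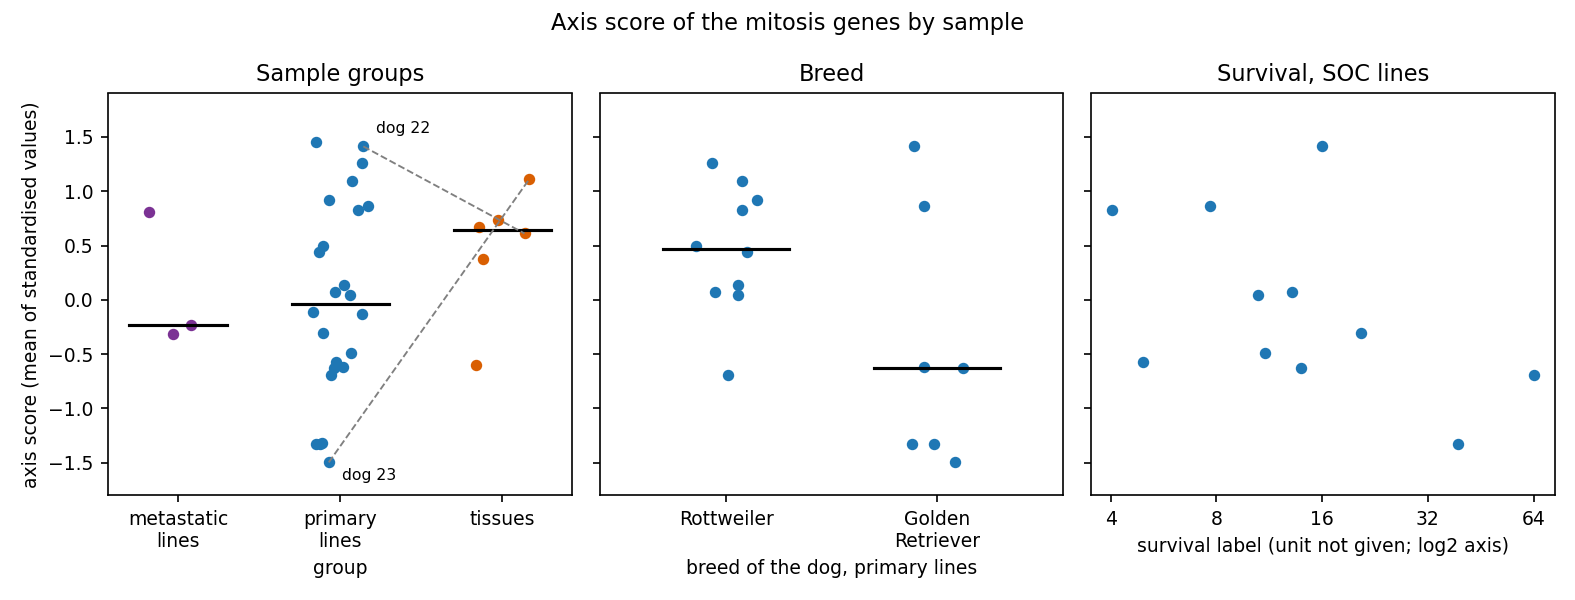
Axis score, the mean of the standardised members, per sample (points) with medians (bars), by sample group (left, dashed lines joining the line and tissue of dogs 22 and 23), by breed of primary lines (middle) and against the survival label in 11 SOC lines (right, log2 axis). Scores of Rottweiler lines have a median of 0.468 and those of Golden Retriever lines -0.629, and the ranges overlap.

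Longer survival went with lower levels in direction, and no member passed the test. The slope was fitted on log2 of the survival label, whose unit the labels do not give, in the 11 primary lines of dogs labelled SOC. It was negative for 37 of 38 members, with a median of -0.731 log2 units of level per doubling of survival, where the median over all genes was -0.00543. None of the members and 0% of all genes were called (0 of 7849), and at an unadjusted p under 0.05 stood 6 of 38 members, against 4.89% of all genes. CCNB2 was at 2.94, 7.47 and 11.19 as lowest, median and highest (slope -1.28, SE 0.488, limma adjusted p = 0.906). KIF23 was at 2.20, 6.37 and 9.98 (-1.20, SE 0.458, adjusted p = 0.906) and ECT2 at 2.49, 5.71 and 10.24 (-1.16, SE 0.470, adjusted p = 0.906). All 3 genes were lowest in primary line 17 (survival 38.96) and highest in the line of dog 22 (survival 16). The axis score had an r of -0.484 and a rho of -0.482 with log2 survival over the 11 lines, and an r of -0.305 without the lines farthest from the median survival, with labels of 64.01 and 4.04. The number of members at an unadjusted p under 0.05 was 26 without primary line 18 (9.96% of all genes) or without the line of dog 22 (8.33%), and 0 without primary line 3 (3.43%) or 17 (2.83%). The median of the members' slopes stayed negative in each of these, from -0.974 to -0.476.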

How the data were processed

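Affymetrix arrays were summarised to linear intensities with GCRMA (version not stated) by the authors, per the submitters' processing notes. The deposited values were taken to log2 here after a floor at 1, which altered 0 values. Of 43035 probe sets 175 controls were left out. Probe sets with log2 over 5 on at least 3 of 34 arrays were kept (18591, of which 14059 had a single symbol in the platform annotation). The probe set with the highest mean stood for each gene (7849 genes). Of 29264 probe sets with a single symbol, 27690 matched the UU_Cfam_GSD_1.0 gene table, and 0 symbols changed. Precision is limited by how many arrays there are.

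Both line arrays of dog 22 were averaged. Tests were made with limma 3.58.1 (lmFit, eBayes) in R 4.3.3 over all genes, with Benjamini-Hochberg adjustment and calls at an adjusted p under 0.05, and at least 2-fold for lines against tissues. Metastatic lines, primary lines and tissues shared 1 fit. The 4 comparisons and the correlation with the axis were run on simulated data as a check of the code. In the simulated comparisons genes varied independently of each other, which the members do not. Other samples of a group are labelled as different dogs. A line and a tissue shared a dog in dogs 22 and 23, and their deviations from the group means correlated at 0.157 and -0.175. Alternatives (filters, probe set choice, quantile normalization, array weights, title prefix, samples left out) are in the closing section. The members, lists and alternatives were chosen with earlier results of these data known.

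Values by sample are given for members that depart from the axis, the 6 with the highest and the 6 with the lowest r, called members and the 3 with the largest difference in each comparison. The genes named outside the list are the 10 highest and 3 lowest by r and those of 6 lists (regulators of mitotic transcription, other kinesins, constitutive centromere network, other kinetochore and checkpoint genes, condensin and cohesin genes, anaphase promoting complex).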

Additional observations from a re-analysis of the deposited data

Results flagged for a closer look

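In 6 of the 39 checks made for a sample far from the others, tissue 2 lay below the remaining 5 tissues by more than the 95% critical value of Dixon's test for 6 samples. The checks covered each member and the axis score in tissues, chance gives such a gap in about 1 in 20 checks, and the members share the axis, so these are not separate events. In tissue 2 the log2 level of CDK1 was 8.03, where the next lowest tissue was at 10.25. AURKB was at 6.64 against 9.13, and KIF23 at 4.73 against 8.04. NUF2 was at 6.29 against 9.15, SPC25 at 6.86 against 10.04 and INCENP at 5.77 against 6.79. The actin 3′ minus 5′ difference was 2.72 in tissue 2, within the 1.27 to 4.61 of all tissues, and the part of tumour content in tissue 2 was not tested.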

How the results depend on the processing

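Of 134 alternative values of the results that answer a comparison, 122 stayed within the limits set for them and 12 moved. For members called in lines against tissues, 1 in the text, the count was 0 with no filter (8.94% of all genes called). It was also 0 with the arrays of dog 22 kept apart (13.9% of all genes). With array weights it was 5 (AURKB, CENPF, KIF4A, KIF22 and CKAP2), where 18.8% of all genes were called. Without 1 tissue in turn it was 0 to 1, where 12.6% to 15% of all genes were called. The median of the members was 1.75 within title prefix 3, and KIF4A reversed there to 1.75. With the title prefix as a covariate both values were the same, since that fit sets the same line arrays against the tissues. For Rottweiler against Golden Retriever lines 22 members and 3.45% of all genes were called with array weights. Members following in tissues numbered 24 to 37 without 1 tissue in turn, with no share of all genes taken for these settings. The cause of these changes was not tested, beyond fewer samples in some fits. With dog as a random replicate block (estimated correlation -0.0267, paired by the labels in 2 dogs) 1 member was called and the median was -1.18. There 14.7% of all genes were called, and the block changed no other call. Of 2884 alternative values of single members 2817 kept their direction and their side of the threshold or stayed within the spread, 28 newly passed a threshold, 7 no longer passed it, 30 moved and 2 reversed. The values without primary line 4 were chosen after seeing the data. Intensities near background limit the low members, such as HMMR, KIF2C and CDCA8.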
